A study of Mus musculus with 12 samples.

Results

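Expression of 8 genes of the heat shock and cold shock responses was examined in the livers of 12 adult male C57BL/6J mice, 6 born to UCP1-KO dams (arrays 7 to 12) and 6 born to WT dams (arrays 1 to 6). Members were taken by gene symbol from a list of 10, with 1 probe set each, among 19505 symbols on the array. Hspa8 and Dnaja1 were not analysed here. The 8 comprised 6 heat-inducible chaperone genes (Hspa1a, Hspa1b, Hsph1, Hsp90aa1, Dnajb1 and Hspb1) and 2 cold-inducible genes (Cirbp and Rbm3). UCP1 lets brown fat mitochondria give off energy as heat, and UCP1-KO dams lack it. Dams of either genotype were paired with heterozygous males at 23 °C, and all 12 sons are labelled HET, so the groups differ by the mother's genotype and by which parent passed on the mutant allele. These cannot be told apart. The sons were 4 to 5 months old, lived at 23 °C and ate standard chow. The labels name neither the litter, the hour of collection nor the body temperature of a mouse, so each p-value covers only the variation among these mice, and some may share a mother.

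When proteins unfold in heated or stressed cells, the transcription factor HSF1 binds heat shock elements in the DNA, which are alternating inverted copies of the unit GAA, and raises the transcription of chaperone genes. HSP70 proteins, encoded by Hspa1a and Hspa1b, hold unfolded chains. Dnajb1 is an HSP40 co-chaperone that delivers clients to them, Hsph1 is an HSP110 protein that exchanges their nucleotide, Hsp90aa1 is the stress-inducible cytosolic HSP90, and Hspb1 is a small heat shock protein that keeps unfolded chains from clumping. Cirbp and Rbm3 encode RNA-binding proteins that are made in larger amounts under mild cooling. In mouse liver, several heat shock genes and Cirbp are known to follow the daily rhythm of body temperature, in opposite directions.

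Promoter windows are shown as a description. Whether their elements bear on the levels of these genes over the mice was not tested. RefSeq windows of the build GRCm38.p6, from 250 bases before to 50 bases after each start site, were found for 6 of the 8 members, not for Hsp90aa1 and Rbm3. Hsph1, Dnajb1 and Cirbp have 2 start sites each, which makes 9 windows, and the first listed is shown. Inverted pairs of the heat shock unit (GAANNTTC or TTCNNGAA, each its own reverse complement, so that both strands were searched) stand in capitals. Hspa1a and Hspa1b, neighbours on chromosome 17 with 0 genes between them in the RefSeq table, have windows that differ at 4 of 300 bases, a 98.7% identity. Hsph1 carries 3 pairs, and Cirbp is the only cold-inducible gene for which a window was found.
Hspa1a promoter, chr17:34972107-34972406, minus strand: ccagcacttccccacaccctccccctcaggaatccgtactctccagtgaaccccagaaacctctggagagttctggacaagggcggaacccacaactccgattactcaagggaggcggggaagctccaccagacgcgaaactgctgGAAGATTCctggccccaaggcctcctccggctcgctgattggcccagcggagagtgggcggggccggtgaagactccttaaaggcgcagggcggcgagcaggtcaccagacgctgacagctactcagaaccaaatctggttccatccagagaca
Hspa1b promoter, chr17:34959189-34959488, minus strand: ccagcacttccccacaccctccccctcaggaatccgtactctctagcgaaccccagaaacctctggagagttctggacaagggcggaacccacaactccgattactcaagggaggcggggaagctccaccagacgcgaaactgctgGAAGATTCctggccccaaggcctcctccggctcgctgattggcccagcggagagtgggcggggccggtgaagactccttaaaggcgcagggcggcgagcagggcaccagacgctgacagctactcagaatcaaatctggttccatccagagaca
Hsph1 promoter, chr5:149636287-149636586, minus strand: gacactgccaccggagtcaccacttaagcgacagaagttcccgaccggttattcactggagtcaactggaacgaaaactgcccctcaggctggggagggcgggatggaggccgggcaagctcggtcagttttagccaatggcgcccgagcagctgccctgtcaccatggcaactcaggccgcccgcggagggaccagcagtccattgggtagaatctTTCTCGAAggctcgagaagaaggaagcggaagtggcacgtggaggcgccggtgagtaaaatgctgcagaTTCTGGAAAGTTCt
Cirbp promoter, chr10:80167589-80167888, plus strand: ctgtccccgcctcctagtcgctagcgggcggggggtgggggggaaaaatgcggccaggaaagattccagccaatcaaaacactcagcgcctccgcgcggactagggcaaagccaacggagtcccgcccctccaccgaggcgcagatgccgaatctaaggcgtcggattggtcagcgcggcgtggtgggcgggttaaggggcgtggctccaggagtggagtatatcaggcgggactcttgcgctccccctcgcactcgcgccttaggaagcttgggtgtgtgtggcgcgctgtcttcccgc

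Such a pair stood in 5 of these 9 windows, those of 4 genes, and in 15.1% of the 32851 windows of all genes. In Hspa1a and Hspa1b it began 104 bases upstream of the start site. In Hspb1 it occurred at 117 and 97 bases upstream. Counted from its first start site, Hsph1 held 1 pair 33 bases upstream and, beginning 36 bases downstream, 3 alternating units, in which 2 pairs overlap by sharing the middle unit. From its second start site the same elements lay 54 bases upstream and 15 bases downstream. Such a run of 3 units, searched on both strands, was held by 0.603% of all windows. In both windows of Dnajb1 and of Cirbp these letters were not found. The CCAAT box (CCAAT or ATTGG), present in 37.4% of all windows, was found in Hspa1a, Hspa1b, both windows of Hsph1 and the first windows of Dnajb1 and Cirbp, not in their second.

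All values are log2 signals as deposited, in which the background controls averaged 5.02 on the arrays of UCP1-KO-dam offspring and 5.00 on those of WT-dam offspring, and all 8 genes lay above them. Arrays correlated with each other at r = 0.985 to 0.992 over the 22206 probe sets tested, which are not independent replicates. The median of the negative controls was 5.96 to 6.36 on the UCP1-KO-dam arrays and 6.14 to 6.62 on the WT-dam arrays, with WT-dam arrays 3 to 6 brightest at 6.41 to 6.62. Hepatocyte markers averaged 18.20 to 18.39 in UCP1-KO-dam offspring and 18.09 to 18.33 in WT-dam offspring. Ucp1 itself lay below background, at 4.10 ± 0.22 in UCP1-KO-dam offspring and 4.27 ± 0.37 in WT-dam offspring (SD, n = 6 each). In whole liver, fewer cells of a type and less RNA per cell cannot be told apart.

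Heat shock and cold-inducible genes did not pass the test for a difference between the offspring of UCP1-KO dams and of WT dams. With limma, 0 of the 8 genes passed at an adjusted p under 0.05 (adjusted p = 0.371 to 0.992), where 0.0360% of all 22206 probe sets passed, 0.00450% as higher and 0.0315% as lower in UCP1-KO-dam offspring. At an unadjusted p under 0.05 the count was 1 of 8, Cirbp, against 13.1% of all probe sets. The 6 livers of one group overlapped the 6 of the other in every one of the 8 genes, while 1.05% of all probe sets did not overlap. The median difference of the 8 genes was -0.07 (log2), beside 0.03 over all probe sets.

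**Figure D1:**
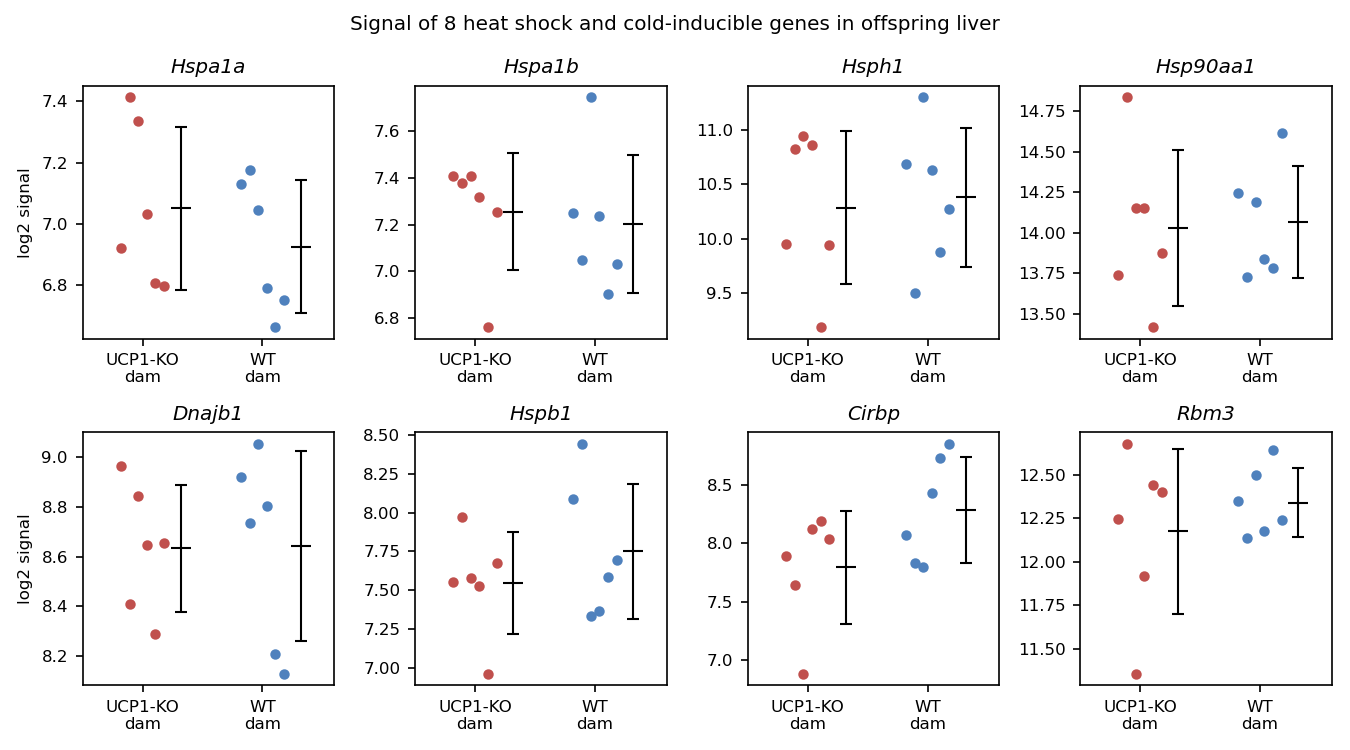
Log2 signal (vertical axes) of 8 genes in each liver, with UCP1-KO-dam offspring in red on the left and WT-dam offspring in blue on the right of each panel; black bars give the mean and SD of 6 mice. The groups overlap in every panel, and the lowest points of Cirbp and Rbm3 belong to 1 liver, array 9.

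The inducible HSP70 genes were close between the groups. Hspa1a ranged from 6.80 to 7.41 with a median of 6.98 in UCP1-KO-dam offspring, and from 6.66 to 7.17 with a median of 6.92 in WT-dam offspring. Livers 8 and 9 of the UCP1-KO-dam group were highest, and liver 5 of the WT-dam group lowest. The log2 difference was 0.12 (95% interval -0.19 to 0.43, limma adjusted p = 0.766), or 1.09-fold with an interval of 0.879 to 1.35. Hspa1b ranged from 6.76 to 7.41 with a median of 7.35 in UCP1-KO-dam offspring, and from 6.90 to 7.74 with a median of 7.14 in WT-dam offspring. Of the UCP1-KO-dam livers, 5 lay within 7.25 to 7.41 and liver 11 stood apart below them at 6.76. Its log2 difference was 0.05 (interval -0.28 to 0.39, adjusted p = 0.924). Because the 2 genes encode nearly identical proteins, how far their probes tell them apart is uncertain.

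Hsph1 varied most between mice. It ranged from 9.18 to 10.94 with a median of 10.39 in UCP1-KO-dam offspring, and from 9.50 to 11.30 with a median of 10.46 in WT-dam offspring. The lowest liver, array 11, and the highest, array 3, were 4.33-fold apart. The log2 difference was -0.09 (interval -0.75 to 0.56, adjusted p = 0.933), which leaves room for levels from 0.596-fold to 1.47-fold in the UCP1-KO-dam group. Its spread within groups, an SD of 0.67, was larger than that of 98.9% of all probe sets tested, whose median SD was 0.28.

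Hsp90aa1 ranged from 13.42 to 14.84 with a median of 14.01 in UCP1-KO-dam offspring, and from 13.73 to 14.62 with a median of 14.01 in WT-dam offspring. Livers 8 and 6, 1 from each group, were highest. The groups differed by -0.04 on the log2 scale (interval -0.48 to 0.40, adjusted p = 0.966). Dnajb1 ranged from 8.29 to 8.97 with a median of 8.65 in UCP1-KO-dam offspring, and from 8.13 to 9.05 with a median of 8.77 in WT-dam offspring. Here the WT-dam livers held both extremes. The log2 difference was -0.01 (interval -0.38 to 0.36, adjusted p = 0.992).

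Hspb1 ranged from 6.96 to 7.97 with a median of 7.57 in UCP1-KO-dam offspring, and from 7.33 to 8.44 with a median of 7.64 in WT-dam offspring. WT-dam livers 1 and 2 were highest at 8.09 and 8.44, while WT-dam livers 3 to 6, whose negative controls were bright, lay at 7.33 to 7.69. On the log2 scale the difference was -0.21 (interval -0.62 to 0.21, adjusted p = 0.697). It was -0.42 after adjustment for the negative control signal and -0.72 without WT-dam arrays 3 to 6, and did not pass in either (adjusted p = 0.457 and 0.624).

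Cirbp had the largest difference of the 8 genes and was lower on average in UCP1-KO-dam offspring, without passing. It ranged from 6.88 to 8.19 with a median of 7.96 in UCP1-KO-dam offspring, and from 7.80 to 8.86 with a median of 8.25 in WT-dam offspring. WT-dam livers 4, 5 and 6, at 8.43, 8.74 and 8.86, lay above every UCP1-KO-dam liver, and UCP1-KO-dam livers 8 and 9, at 7.64 and 6.88, below every WT-dam liver. The log2 difference was -0.49 (interval -0.98 to -0.01, limma adjusted p = 0.371, exact two-sided permutation p = 0.106, n = 6 each), or 0.710-fold. Liver 9 also had the dimmest negative controls, at 5.96, and without it the difference was -0.31. Adjusted for the negative control signal it was -0.27 (adjusted p = 0.716), and without WT-dam arrays 3 to 6 it was -0.16 (adjusted p = 0.935).

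Rbm3 ranged from 11.36 to 12.68 with a median of 12.32 in UCP1-KO-dam offspring, and from 12.13 to 12.64 with a median of 12.30 in WT-dam offspring. Liver 9 was again lowest, followed by liver 10 at 11.92, and the other 10 livers lay within 12.13 to 12.68. Between the groups the log2 difference was -0.17 (interval -0.56 to 0.23, adjusted p = 0.752). Without liver 9 it was -0.0027.

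**Figure D2:**
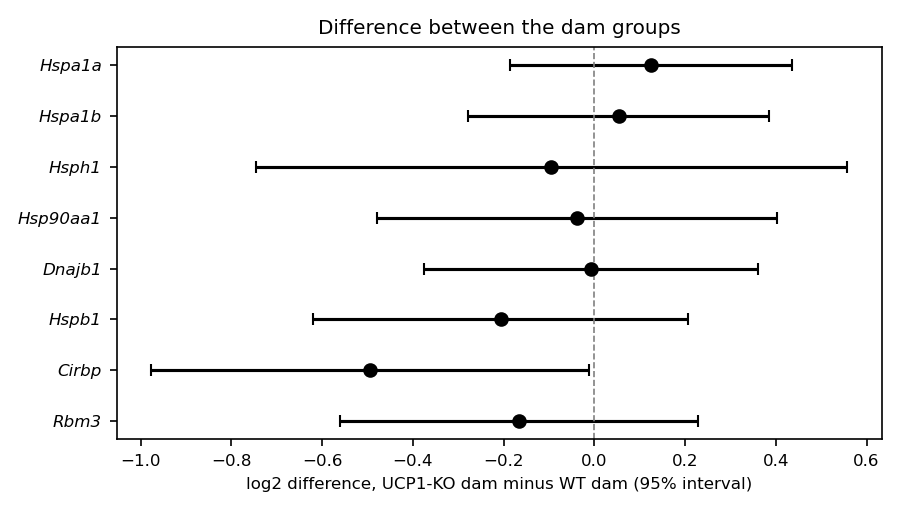
Log2 difference of each gene, UCP1-KO-dam minus WT-dam offspring (horizontal axis), with its 95% interval from limma (6 mice per group). Only the interval of Cirbp, -0.98 to -0.01, lies on one side of 0, and its adjusted p is 0.371.

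Single livers lay far apart in most of the genes. From the lowest to the highest liver Cirbp spanned 3.93-fold, Hspb1 2.79-fold, Hsp90aa1 2.67-fold, Rbm3 2.5-fold, Hspa1b 1.98-fold, Dnajb1 1.90-fold and Hspa1a 1.68-fold. The within-group SD of Cirbp, 0.47, exceeded that of 94.4% of probe sets, and for Hsp90aa1, with 0.42, the share was 89.7%. It was 84.4% for Hspb1, 79.5% for Rbm3, 69.1% for Dnajb1, 48.3% for Hspa1b and 34.6% for Hspa1a. In UCP1-KO-dam liver 11 all 6 heat-inducible genes lay below their own means over the 12 mice, with Hspa1b, Hsph1, Hsp90aa1 and Hspb1 at their lowest of all. In WT-dam liver 5 all 6 also lay below, with Hspa1a at its lowest, and in that liver both cold-inducible genes lay above their means. In WT-dam liver 1 all 6 lay above, and so did both cold-inducible genes, with z-scores of 0.056 for Cirbp and 0.263 for Rbm3. Both cold-inducible genes were also above their means in UCP1-KO-dam liver 11, and both below in UCP1-KO-dam liver 7 and WT-dam liver 2, where 2 and 3 of the 6 heat-inducible genes lay above. In UCP1-KO-dam liver 9, which had the lowest Cirbp and Rbm3, 5 of the 6 heat-inducible genes lay above their means.

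**Figure D3:**
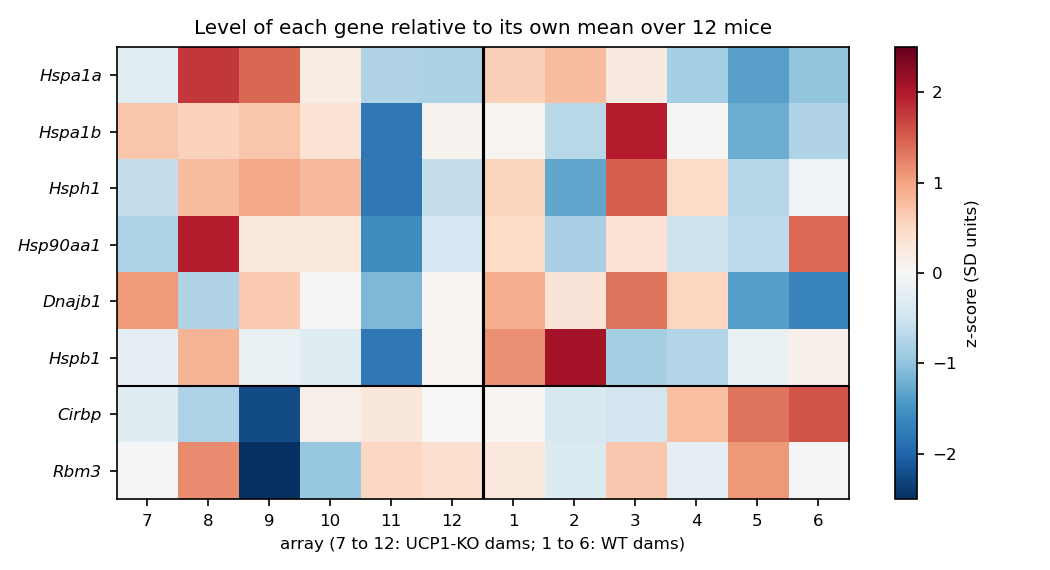
Each gene's level in each liver as a z-score, in SD units from the gene's own mean over 12 mice (colour scale), with arrays 7 to 12 of UCP1-KO-dam offspring left of the black line and arrays 1 to 6 of WT-dam offspring right of it; the lower 2 rows are the cold-inducible genes. Array 11 is low in all 6 heat-inducible genes and array 9 is low in both cold-inducible genes.

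Hspa1a and Cirbp ran in opposite directions over the 12 livers. Pearson's r was -0.823 and Spearman's rho -0.874 (two-sided permutation p = 0.00053 and 0.00037, n = 12, or 0.0148 and 0.0104 after Benjamini-Hochberg adjustment over the 28 pairs of the 8 genes). Without livers 8 and 9, the 2 farthest from the median of Hspa1a, r was -0.756. Within the UCP1-KO-dam group r was -0.757 (exact permutation p = 0.0556, n = 6) and within the WT-dam group -0.914 (exact permutation p = 0.0375, n = 6). Leaving out single livers gave r from -0.854 to -0.784, with an adjusted p of 0.00812 to 0.0473. After removal of what followed the negative control signal r was -0.742 (adjusted p = 0.0321), and without WT-dam arrays 3 to 6 it was -0.693 over 8 livers (adjusted p = 0.236). The negative control signal itself had r = -0.534 with Hspa1a and 0.607 with Cirbp (permutation p = 0.0738 and 0.034, n = 12). After adjustment over the 8 genes these p-values were 0.295 and 0.272. Hspa1a lay close to that signal in some livers, with 6.79 beside 6.62 in WT-dam liver 4. Livers with a high level of Hspa1a tended to have a low level of Cirbp, with r below 0 in both groups. The other cold-inducible gene, Rbm3, had r = -0.331 and rho = -0.133 with Hspa1a (adjusted permutation p = 0.469 and 0.799, n = 12). Hspa1b had r = -0.555 and rho = -0.748 with Cirbp (adjusted permutation p = 0.283 and 0.0533, n = 12). Neither of these pairs passed.

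Among the heat-inducible genes, Hspa1b and Hsph1 tended to be high and low in the same livers. UCP1-KO-dam liver 7 departed from this, with rank 2 from the top in Hspa1b and 8 in Hsph1. Their r was 0.810 and rho 0.748 (permutation p = 0.00134 and 0.00725, n = 12, adjusted p = 0.0188 and 0.0533), with 0.793 within the UCP1-KO-dam group and 0.870 within the WT-dam group (exact permutation p = 0.0417 and 0.0153, n = 6 each). Without livers 3 and 11, the extremes of Hspa1b, r was 0.595. Without UCP1-KO-dam liver 11 alone r was 0.723 (adjusted p = 0.12), and without WT-dam liver 3 alone it was 0.748 (adjusted p = 0.125), so neither passed. Hspa1b and Dnajb1 had r = 0.747 and rho = 0.727 (permutation p = 0.00504 and 0.00952, n = 12, adjusted p = 0.047 and 0.0533), with 0.713 and 0.782 within the UCP1-KO-dam and WT-dam groups (exact permutation p = 0.0847 and 0.0431, n = 6 each). Without livers 3 and 11 r was 0.636. This adjusted p was above 0.05, between 0.06 and 0.151, when any 1 of WT-dam livers 3, 4 and 5 or of UCP1-KO-dam livers 7, 9, 10, 11 and 12 was left out.

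**Figure D4:**
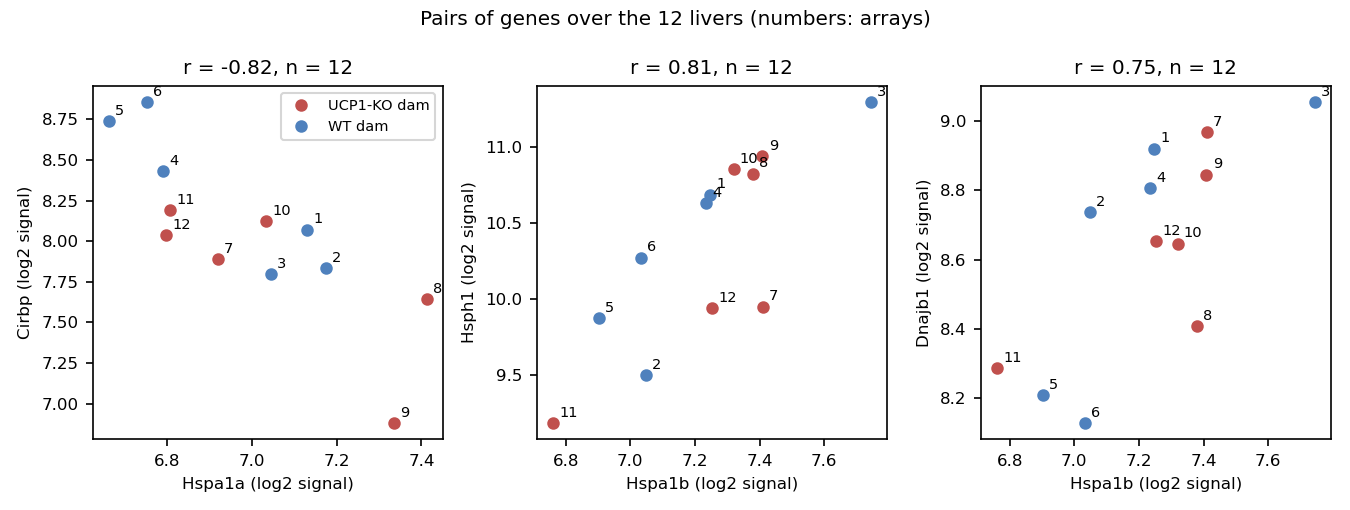
Log2 signals of 2 genes against each other in the 12 livers (red, UCP1-KO-dam offspring; blue, WT-dam offspring; numbers are arrays). Cirbp declines with Hspa1a (r = -0.823), and Hsph1 (r = 0.810) and Dnajb1 (r = 0.747) increase with Hspa1b.

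Those were the 3 of 28 pairs that passed. Hspa1a and Hspa1b, whose windows are near-identical, had r = 0.5 and rho = 0.552 (permutation p = 0.0968 and 0.066, n = 12, adjusted p = 0.308 and 0.264), and r = 0.446 without livers 8 and 9. The cold-inducible pair Cirbp and Rbm3 had r = 0.528 and rho = 0.035 (permutation p = 0.0884 and 0.92, n = 12, adjusted p = 0.308 and 0.99). Without livers 6 and 9 this r was 0.0144, so the value rests on those livers. Hsp90aa1 and Cirbp had r = -0.106 and rho = -0.196 (permutation p = 0.743 and 0.543, n = 12, adjusted p = 0.867 and 0.799), and r = -0.385 without livers 6 and 8.

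Genes whose pattern was most like that of the heat-inducible members were found by Pearson's r with their mean z-score over the 12 arrays, after centring each group. The 13413 genes ranked had a mean signal above the background controls, a lower bar than the negative controls. Of those named below, Olfr979 (5.43), Zfp763 (5.82), Speer4b (5.88) and Papolb (5.9) averaged less than the lowest negative control median, 5.96. Whether these signals reflect liver transcripts was not tested. These values are a description of selected genes and carry no test. Highest were Egln3, a prolyl hydroxylase of the hypoxia response, with 0.945, Chordc1, an HSP90 co-chaperone, with 0.915, Inhbc, an activin subunit, with 0.903, Orc4 with 0.893 and Gimap9 with 0.884. Chordc1 read 9.48 in UCP1-KO-dam liver 11 and 10.76 in WT-dam liver 3, the livers in which Hspa1b and Hsph1 were lowest and highest. Lowest were Rab11fip3 with -0.892, Olfr979 with -0.891, Mgam with -0.879, Zfp763 with -0.875 and Mapk1ip1 with -0.874. Liver 11 lay farthest out in the heat-inducible genes, with a mean z-score of -1.47. Without it r was 0.893 for Egln3, 0.879 for Chordc1, 0.81 for Inhbc, 0.784 for Orc4 and 0.779 for Gimap9. For the 5 lowest it ran from -0.894 (Zfp763) to -0.788 (Olfr979). For the cold-inducible pair the highest were Speer4b with 0.892, Cdca7l with 0.882, Tefm, a mitochondrial transcription elongation factor, with 0.881, Hnrnpa1l2-ps2 with 0.88 and Plxna2 with 0.872. The lowest were Gng12, a G protein gamma subunit, with -0.933, Papolb with -0.914, Hgs with -0.905, Ptdss1, a phosphatidylserine synthase, with -0.897, and Ets2 with -0.896. Without liver 9, whose mean z-score of Cirbp and Rbm3 was -2.38, r was 0.784 for Speer4b, 0.701 for Cdca7l, 0.82 for Tefm, 0.554 for Hnrnpa1l2-ps2 and 0.549 for Plxna2. It was -0.8 for Gng12, -0.745 for Papolb, -0.705 for Hgs, -0.719 for Ptdss1 and -0.661 for Ets2. Without centring, r over the 12 livers was 0.321 for Cdca7l, 0.662 for Tefm, -0.634 for Hgs, -0.675 for Zfp763, -0.696 for Mapk1ip1 and -0.703 for Ets2. For the other genes named it was -0.769 (Olfr979) or further from 0. In UCP1-KO-dam liver 9, lowest in Cirbp and Rbm3, Gng12 was at its highest, 12.94.

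Each of the 8 genes was also correlated with each measured gene of some lists, a choice made after the data were seen. These were heat shock factors and HSF1 regulators, chaperonins, splicing factors and the circadian clock. Of the 376 pairs, 1 passed after adjustment over all of them: Hspa1b with Chordc1, at r = 0.915 and rho = 0.790 (permutation p = 0.00013 and 0.00353, n = 12, adjusted p = 0.0489 and 0.584). It was 0.967 within the UCP1-KO-dam group, 0.937 within the WT-dam group and 0.769 without the 2 farthest livers. None of the 144 pairs with clock genes passed (lowest adjusted p = 0.371), and 3 had an unadjusted p under 0.05. Dbp, a clock output factor singled out after its values were seen, read 11.07 to 15.72 in UCP1-KO-dam offspring and 10.65 to 15.70 in WT-dam offspring.

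Related chaperone families were counted in the same limma fit, over genes other than the 8 members. In each of the 13 lists 0 genes passed at an adjusted p under 0.05 (0.0360% of all probe sets did), the lowest being 0.118 for Npas2. At an unadjusted p under 0.05, 7.08% of all probe sets were higher and 6.00% lower in UCP1-KO-dam offspring, and the counts of the lists are read against these shares. Among 7 genes listed under heat shock factors and regulators of HSF1, 0 were higher and 1 lower (median difference -0.18). Hsf1 itself was not analysed here. Hsf4, a further heat shock factor, had -0.52, Hsbp1 -0.24 and Hsf2 -0.18. Hspbp1, kept in this list although it encodes an HSP70-binding protein, had -0.27. In the HSP70 and HSP110 family 2 of 11 were higher and 0 lower (median 0.18), with Hspa2 at 0.52 but below background, Hyou1, an HSP110 protein of the endoplasmic reticulum, at 0.49, Hspa13 at 0.31 and Hspa14 at 0.24. Of 21 DNAJ co-chaperones, 5 were higher and 1 lower (median 0.11). Dnajc3, of the endoplasmic reticulum, had 0.45, Dnajc12 0.39, Dnajc8 0.34 and Dnajc27, below background, 0.33. The 1 lower was Dnajb9, also of the endoplasmic reticulum, with -0.53. Adjusted for the negative control signal, the DNAJ counts were 1 higher and 0 lower (median 0.016), and without WT-dam arrays 3 to 6 they were 0 and 2 (median -0.023). Under both settings 2 of the 7 genes listed under heat shock factors and HSF1 regulators were lower.

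Among HSP90 proteins and their co-chaperones, 2 of 12 were higher and 0 lower (median 0.16). These were Fkbp5, a glucocorticoid-induced immunophilin, with 0.44 and Hsp90b1, the HSP90 of the endoplasmic reticulum, with 0.42. Ptges3 had 0.30 and Ahsa1 0.25. Of 8 HSP70 partners, 3 were higher and 1 lower (median 0.25), with Bag1 at 0.35, St13 at 0.34 and Bag2 at 0.29 against Bag6 at -0.42. Bag2 averaged 5.52 in UCP1-KO-dam and 5.23 in WT-dam offspring, also dimmer than the negative controls. Of these partners 1 was higher and 1 lower after the adjustment, and 0 were higher and 2 lower without WT-dam arrays 3 to 6. Of 9 small heat shock proteins, 0 were higher and 1 lower (median -0.07). The 1 lower was Hspb2 with -0.29. It averaged 5.74 in UCP1-KO-dam and 6.03 in WT-dam offspring, below the negative controls, whose medians averaged 6.21 and 6.39. Hspb6 had -0.62 but was not counted (limma unadjusted p = 0.068). Cryab had -0.22 and Cryaa, below background, 0.21. Of 9 chaperonins, which fold proteins inside closed rings, 4 were higher and 0 lower (median 0.28). Cct2 had 0.39, Cct8 0.36 and Cct5 0.35, all subunits of the cytosolic ring, and Hspd1 of the mitochondrial ring had 0.33. Cct2 ranged from 13.28 to 13.86 in UCP1-KO-dam offspring and from 12.89 to 13.30 in WT-dam offspring. After the same adjustment 1 of the 9 chaperonins was higher (median 0.19, 8 above 0). Without WT-dam arrays 3 to 6, which left only arrays 1 and 2 of that group, the count was 0 (median 0.21, 7 above 0).

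Of 7 other heat-inducible genes 1 was higher, Gadd45a with 0.37, and 0 lower (median 0.16). Hmox1 had 0.28, Atf3 0.23 and Serpinh1 0.13. In this list 0 were higher under either of the other settings. Among 8 cold-shock domain and related RNA-binding genes, 1 was higher and 1 lower (median 0.12). Ybx3 had 0.50 and Rbmx, an RNA-binding protein of splicing, -0.69. Lin28a had 0.30 but lay below background, and Carhsp1 had 0.25. Of 13 temperature-sensitive splicing kinases and SR proteins, which bind splicing enhancers, 0 were higher and 7 lower (median -0.41), and 11 lay below 0. Srsf2 had -0.67, Clk1, a kinase of SR proteins, -0.62, Srsf1 -0.57 and Srsf6 -0.52. Clk1 ranged from 9.98 to 11.42 in UCP1-KO-dam offspring and from 11.01 to 11.92 in WT-dam offspring, with its lowest value in liver 9, the liver of lowest Cirbp and dimmest negative controls. The count lower was 1 of 13 after that adjustment (median -0.22) and 0 without WT-dam arrays 3 to 6 (median -0.02).

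Of 18 clock genes 0 were higher and 1 lower (median 0.02). Npas2, a partner of BMAL1, had -1.60, with 4.92 to 7.62 in UCP1-KO-dam offspring and 6.95 to 8.40 in WT-dam offspring, Nr1d2 had 0.36, Per2 -0.42 and Arntl, which encodes BMAL1, -0.43. Of 11 immediate early genes 0 were higher and 1 lower (median -0.06), with Zfp36 at -0.97, Dusp1 at -0.42, Atf3 at 0.23 and Ier3, below background, at 0.11. Of 9 glucocorticoid-induced genes 1, Fkbp5, was higher and 0 lower (median 0.13), while Mt1 had 1.11, Mt2 0.63 and Tat 0.20. The marker lists of 8 liver, blood and fat cell types had 0 genes that passed at an adjusted p under 0.05. At an unadjusted p under 0.05, 1 of 7 sinusoidal endothelial markers was higher (Lyve1 with 0.94) and 1 lower (Stab2 with -0.74). The count was 1 of 5 lymphocyte markers lower (Cd4 with -0.55), 1 of 2 erythroid markers higher (Slc4a1 with 0.37) and 2 of 5 fat cell markers higher (Cidea with 0.39 and Plin1 with 0.28, both below background). It was 0 for hepatocyte, Kupffer cell, stellate cell and bile duct markers. The part of other cell types in the members' values was not tested.

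**Figure D5:**
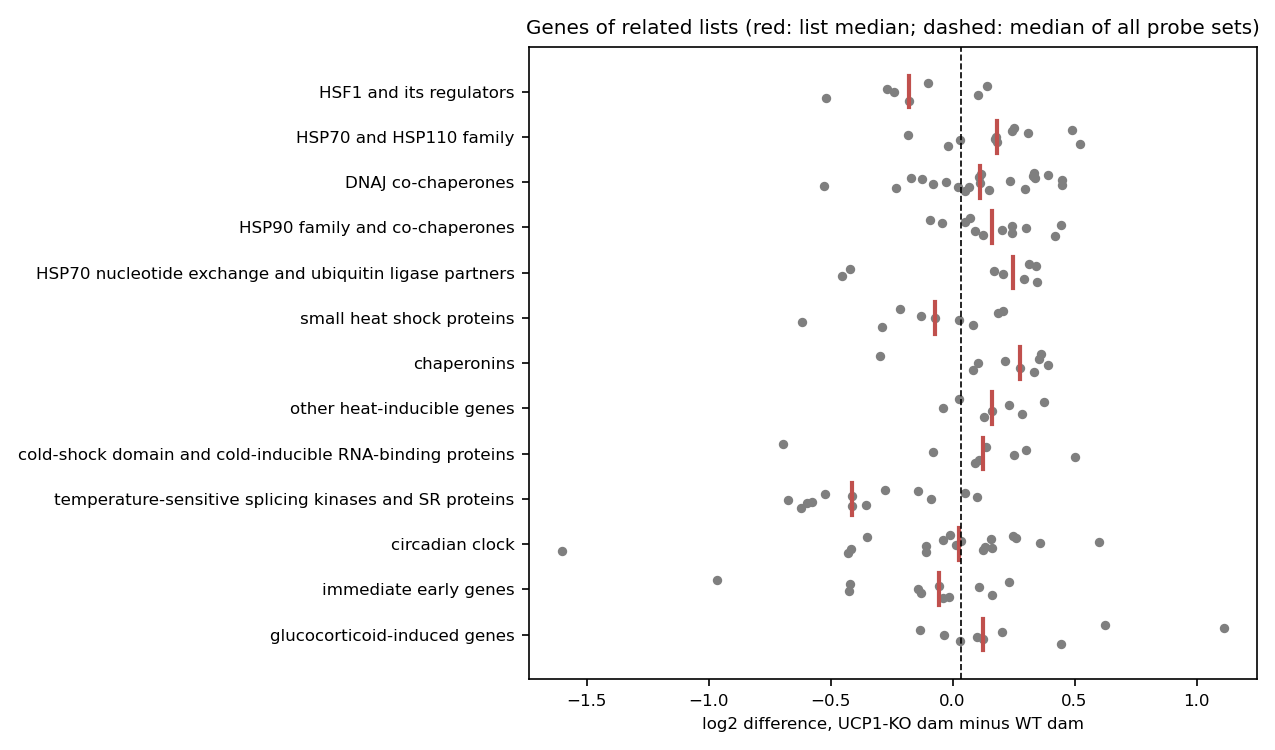
Log2 difference, UCP1-KO-dam minus WT-dam offspring (horizontal axis), of the genes of 13 related lists; points are genes, red bars list medians, and the dashed line is the median of all probe sets, 0.03. The splicing list has the lowest median, -0.41, and the chaperonins the highest, 0.28.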

How the data were processed

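The deposited values are log2 signals, 1 per probe set and array, made by the authors. Per the submitters' processing notes they used RMA in the software Transcriptome Analysis Console; versions and genome build are not given in the sources used here. Such normalization makes arrays alike in their distribution, so a shift of most genes would be reduced. Precision is limited by the 6 arrays per group. Control rows (6640 of 28846) were left out and the other 22206 probe sets tested unfiltered with limma 3.58.1 in R 4.3.3, two-sided, with dam genotype alone in the model and p-values adjusted by Benjamini-Hochberg over all. The platform annotation named 19572 probe sets, and all 19572 Entrez identifiers matched RefSeq. A list gene with several probe sets was read from the brightest. Correlations used 100000 permutations. Members and lists were chosen with earlier results of these data known. Named are all members, the 4 genes of smallest p in each of 13 lists, 5 genes at each end of each likeness ranking, pairs that passed and some fixed pairs. The pairs Hspa1a with Rbm3 and Hspa1b with Cirbp are named beside Hspa1a with Cirbp. Dnajb9 is named as the lower gene of its list. A further fixed pair needs Hspa8, not analysed here. On simulated data with 50 probe sets changed at each size, the fit recovered 14% of changes of 0.5 log2, 86% of 1 and 100% of 2. Smaller differences can be missed. The within-group SD had a median of 0.37 over the 8 genes beside 0.28 over all probe sets, so these shares need not hold for the 8 genes. Alternatives were other scalings, filters on dim probe sets, averaged probe sets, a variance trend, left-out arrays, a negative control covariate and an exact permutation test.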

Additional observations from a re-analysis of the deposited data

Results flagged for a closer look

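Hspa1b on UCP1-KO-dam array 11 read 6.76, while the next lowest liver of that group read 7.25. Its gap to the nearest liver was 0.759 of the group's range, above Dixon's 95% critical value for 6 samples. It was the only 1 of 16 groups of livers, 8 genes in both dam groups, to stand out, and chance flags about 1 in 20 such groups. In the same liver Hsph1, Hsp90aa1 and Hspb1 were also at their lowest.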

How the results depend on the processing

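In each of the 20 alternatives 0 of the 8 genes passed. Cirbp, Hspb1 and Rbm3 lay below 0 in each of these 20. When single arrays were left out the log2 differences ranged from -0.59 to -0.31 for Cirbp, -0.29 to -0.07 for Hspb1, -0.27 to -0.0027 for Rbm3, 0.05 to 0.18 for Hspa1a, -0.00585 to 0.16 for Hspa1b, -0.27 to 0.13 for Hsph1, -0.20 to 0.084 for Hsp90aa1 and -0.11 to 0.075 for Dnajb1. Other settings that turned a direction were quantile normalization for Dnajb1 (0.035), the negative control covariate for Hsph1 (0.084), and the fit without WT-dam arrays 3 to 6 for Hspa1a (-0.10), Hsph1 (0.19) and Hsp90aa1 (0.042). No direction of those genes is therefore claimed, and the cause was not tested. Over all probe sets the count that changed was 8, and it ran from 1 to 112 without single arrays. Leaving out 1 UCP1-KO-dam liver gave 54 (liver 7), 1 (liver 8), 4 (liver 9) and 5 (liver 11), and leaving out 1 WT-dam liver gave 112 (liver 2), 3 (liver 3) and 2 (liver 6). It was 32 without the dimmest 50%, 22 with a variance trend and 2 after adjustment for negative controls. Omitting WT-dam livers 3 to 6 left 8 arrays, 7 to 12 and WT-dam arrays 1 and 2, and limma called 0, with 1561 at an unadjusted p under 0.05. At an unadjusted p under 0.05 the splicing list had 7 lower genes, 1 after that adjustment and 0 without those arrays, and the chaperonins 4 higher, 1 and 0. In the same order the medians were -0.41, -0.22 and -0.02 for the splicing list and 0.28, 0.19 and 0.21 for the chaperonins. Without those arrays the pairs that passed had r of -0.693 for Hspa1a with Cirbp, 0.796 for Hspa1b with Hsph1 and 0.575 for Hspa1b with Dnajb1, and none passed over these 8 livers. Without single arrays r was -0.854 to -0.784, 0.723 to 0.886 and 0.682 to 0.825. The checks of lists and pairs were chosen after the data were seen. No paired analysis was possible because the groups share no replicate numbers.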
